A study of Homo sapiens with 8 samples.

Results

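The evening arm of the study compared 2 arrays of A549 cells exposed to a photochemically altered (PCA) pollutant mixture with 2 arrays of A549 cells held in incubator air over the same hours. These 4 of the 8 arrays in the series were chosen by the exposure named in their labels, and no measured value entered the choice. A549 is an established epithelial line grown from a single human lung adenocarcinoma, so the arrays speak for that line alone. The PCA cells stood at an air-liquid interface and received for 4 hours the mixture that the labels call aged urban mix, a hydrocarbon and nitrogen oxide mixture that had reacted in sunlight in an outdoor chamber. The evening control cells were mock-treated with humidified incubator air, and RNA was collected 9 hours after exposure in both groups. The other 4 arrays hold cells given the fresh urban mix in the morning (the primary mixture) and their own morning control. They were used for the shared estimate of spread and for the comparison of the responses near the end. The methods call the arrays of a group biological duplicates, but each group comes from 1 exposure run, so the standard errors and p-values measure the spread between cultures of a run and not between runs.

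In sunlight, hydrocarbons and nitrogen oxides form ozone, aldehydes and peroxyacyl nitrates, which oxidize lipids and proteins at the airway surface. Epithelial cells are known to answer such injury by shedding ligands of the epidermal growth factor (EGF) receptor family, by activating MAP kinases and by releasing chemokines that call in neutrophils and monocytes. A549 cells are known to hold the NRF2 antioxidant programme high even when unexposed.

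Both groups carried the markers of the line. Of 7 epithelial line markers measured, 6 had a signal of at least 100 (linear scale) on all 8 arrays. The summed signal of the 7 ran from 32295 to 34037 on the evening control arrays and from 30288 to 30868 on the PCA arrays. Keratin gene KRT18 had log2 signals of 13.98 and 13.87 in the control and 13.73 and 13.78 after the PCA mixture. Of 8 markers of alveolar type II cells, the cell type that the line is used to model, 2 reached a signal of 100 on all arrays. The surfactant protein gene SFTPC had log2 signals of 6.41 and 6.28 in the control and 6.51 and 6.401 after the mixture, and the lung lineage factor NKX2-1 had 5.23 and 5.54 in the control and 5.45 and 5.84 after the mixture. All are below 6.64, the log2 of 100, so these defining type II markers stayed under that signal. It was reached on all arrays by 0 of 7 leukocyte, 1 of 8 endothelial and 2 of 8 fibroblast markers. The epithelial cadherin gene CDH1 fell, as described below, and 0 markers of the other 4 lists rose or fell.

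Genes fell more often than they rose after the PCA mixture, and most changes were modest. A gene is said to rise or fall here at a Benjamini-Hochberg adjusted p under 0.05 in limma, taken over all probe sets tested, and a fold change of at least 1.5 (0.585 on the log2 scale). Changes of single genes are on the log2 scale, with the standard error of the fit and 2 arrays in each group. Of 17470 genes tested, 617 changed (3.53%), of which 153 rose (0.876%) and 464 fell (2.66%). The median change was 0.70 among genes that rose and -0.70 among genes that fell, and 18 rises and 44 falls were 2-fold or larger. On all 617 genes both PCA arrays lay beyond both control arrays. That was also so for 11931 genes in all (68.3%). Of the 153 rises, 9 had both control arrays under the signal of 30 (log2 4.91) needed for the test, so they were tested through their PCA arrays alone, and the same held the other way for 1 of the 464 falls.

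The median log2 fold change over all genes was -0.002, with a 1st percentile of -0.748 and a 99th of 0.580. The median gap was 0.073 between control arrays and 0.101 between PCA arrays, against a median absolute fold change of 0.173. Fold changes shifted with the signal of the gene. In the lowest quintile of mean signal the median was 0.151, with 37 rises (1.06%) and 12 falls (0.343%) among 3494 genes. In the highest quintile it was -0.133, with 47 rises (1.35%) and 137 falls (3.92%). The PCA arrays spanned a narrower range, from a 5th percentile of 5.28 and 5.30 to a 95th of 10.44 and 10.42, against 5.16 and 5.16 to 10.56 and 10.53 on the control arrays. The balance of rises and falls therefore depended on the scale. With the arrays centred on their medians 104 genes rose and 669 fell (86.5%), against 75.2% as deposited, and with the arrays scaled to their ribosomal protein genes 482 rose and 185 fell (27.7%). That scaling, chosen after the data were seen, moved the median of all genes to 0.151. Equal amounts of labelled RNA are read on each array, so a change in the RNA content of a cell and a loss of cells cannot be told apart from these signals. The study reports more cell death, by release of lactate dehydrogenase, in cells given the PCA mixture than in unexposed cells. The increase was larger than after the primary mixture. Its authors considered it unlikely that the differences in expression were tied to the differing cell death. The part of cell death in these changes was not tested here.

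**Figure D1:**
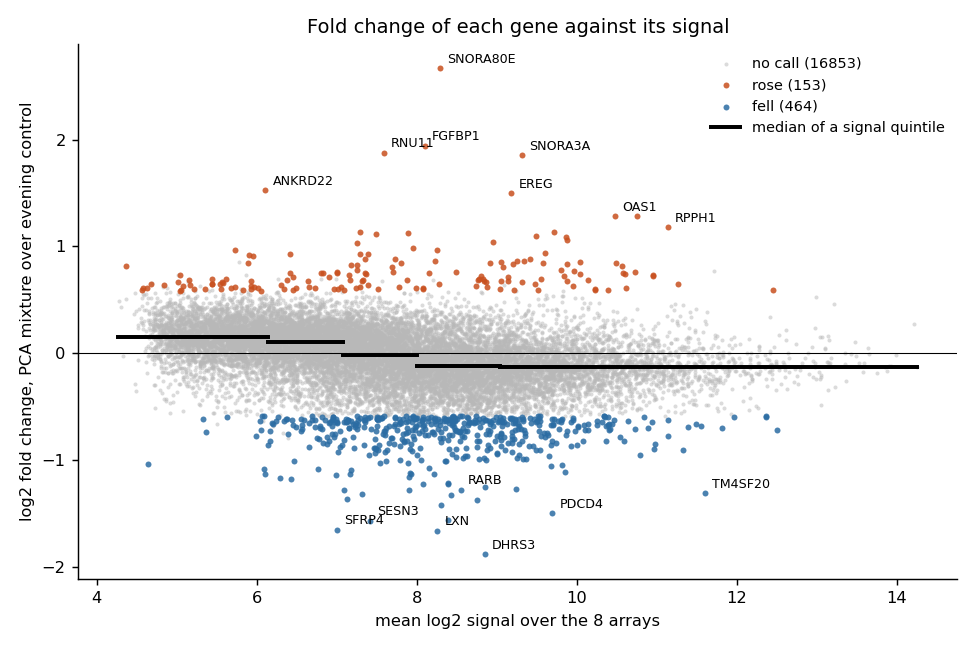
Log2 fold change of the PCA mixture over the evening control (vertical axis) against the mean log2 signal over the 8 arrays (horizontal axis), 1 point per gene, with 153 genes that rose in orange, 464 that fell in blue and the others in grey. The black bars are medians of the 5 signal quintiles, which go from 0.151 at low signal to -0.133 at high signal.

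The promoters of the genes that fell held a forkhead site, the element that FOXO and FOXA factors bind, at a higher share than those of all coding genes. It was searched as TGTTTAC on both strands (GTAAACA on the other) in RefSeq windows on GRCh38.p14 that run from 250 bases before to 50 after a transcript start. Windows were matched for 374 of 452 coding genes that fell (82.7%). The site was in 41 of their 571 windows (7.18%), beside 516 of 18807 windows (2.74%) of all coding genes tested. The 45 largest falls include 36 genes with a window, and 6 of these hold the site before the start. Their windows are shown because they carry the site in genes among the largest falls. The stretch around the site is in lower case, 5′ to 3′ on the gene's strand, with the site in capitals.
TXNIP, chr1:145996660-145996740 (minus strand): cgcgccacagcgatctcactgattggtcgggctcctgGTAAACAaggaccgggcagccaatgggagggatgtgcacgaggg
TCP11L2, chr12:106302483-106302544 (plus strand): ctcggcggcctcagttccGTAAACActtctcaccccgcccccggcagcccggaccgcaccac
BCL2L11, chr2:111120664-111120734 (plus strand): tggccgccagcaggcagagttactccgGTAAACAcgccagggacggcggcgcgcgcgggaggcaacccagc
KLHDC2, chr14:49768083-49768152 (plus strand): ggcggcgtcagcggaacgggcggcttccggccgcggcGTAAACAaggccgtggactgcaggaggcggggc
CPN1, chr10:100081892-100081972 (minus strand): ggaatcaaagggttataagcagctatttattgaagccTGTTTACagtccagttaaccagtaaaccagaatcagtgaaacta
ACTA2, chr10:88991515-88991587 (minus strand): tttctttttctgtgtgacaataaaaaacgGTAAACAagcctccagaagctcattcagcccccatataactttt
The first base of the site lies 124 bases before the start in TXNIP, 232 in TCP11L2, 223 in BCL2L11, 33 in KLHDC2, 66 in CPN1 and 221 in ACTA2. The site is read as TGTTTAC in CPN1 and as GTAAACA in the other 5. A match of letters is a description of the window and does not show that a factor binds there.

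Other motifs differed less between the windows of the genes that fell and those of all coding genes. The AP-1 site (TGANTCA, the same on both strands) was in 6.13% and 6.02%, the NF-kB-type site (GGGNNNTCC and GGANNNCCC) in 22.6% and 24.1%, the cyclic AMP response element (TGACGTCA) in 2.45% and 2.42% and the E-box (CACGTG) in 8.41% and 8.52%. The CCAAT box (CCAAT and ATTGG) was in 37.7% and 34.3%, the E2F-type site (TTTNGCGC and GCGCNAAA) in 1.58% and 2.26%, the cell cycle homology region (TTTGAA and TTCAAA) in 14.9% and 11.7% and the HNF1-type site (GTTAAT and ATTAAC) in 7.36% and 5.15%. Windows overlap in gene families and in genes with several starts, and no test was made. For the genes that rose, windows were matched for 104 of 135 coding genes (77%), under the 80% needed for a comparison of shares, so that check is void and none is given.

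Some secreted ligands of the EGF family rose while 2 receptors of that family fell. FGFBP1, a secreted carrier that frees fibroblast growth factors from the matrix, had log2 signals of 7.31 and 7.10 on the control arrays and 9.02 and 9.27 on the PCA arrays, a rise of 1.94 (standard error 0.109, adjusted p = 0.000633). EREG, a ligand of the EGF receptor and ERBB4, went from 8.65 and 8.70 to 10.19 and 10.16, a rise of 1.501 (standard error 0.0986, adjusted p = 0.000665). NRG1, which binds ERBB3 and ERBB4, went from 8.95 and 9.01 to 10.18 and 9.96 and rose by 1.10 (standard error 0.0953, adjusted p = 0.00111). In each of these genes the PCA arrays lay above the controls by several times the gap within a pair, which was narrow in EREG and wider in FGFBP1 and between the PCA arrays of NRG1. The ligands HBEGF and TGFA rose by 0.76 and 0.61, and the stress cytokine GDF15 by 0.67. Of 21 growth factor ligands and carriers tested, 6 rose, 1 fell and the list's median log2 fold change was 0.20. PDGFC, a platelet-derived growth factor, fell by 0.70. Of other EGF family ligands, the study lists AREG as higher and NRG4 as lower after the PCA mixture. Neither is among the rises and falls counted here. These counts take only genes with a probe set of 1 gene symbol, which 21 of the 24 genes written for this list had. Absence from the counts does not show that AREG or NRG4 was unchanged. When 1 array was left out, the change no longer passed for TGFA (0.53 without PCA array 1, 0.53 without control array 1) and GDF15 (0.64 to 0.71, whichever of the 4 arrays was left out).

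ERBB3, the receptor for NRG1, had log2 signals of 8.61 and 8.80 on the control arrays and 7.41 and 7.55 on the PCA arrays and dropped by 1.22 (standard error 0.0956, adjusted p = 0.000935). ERBB2, its partner in signalling, fell by 0.82 and the fibroblast growth factor receptor FGFR4 by 0.77. Other receptor kinases went the other way, with AXL higher by 0.78 and EPHA2 by 0.68. In all, 2 of 26 receptor tyrosine kinases tested rose and 3 fell. The receptor family thus held changes in both directions, and 21 of its members did not pass. With 1 array left out, the limits were missed by EPHA2 (0.56 without PCA array 1).

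Genes induced by MAP kinase signalling rose in part. Of 28 immediate early and feedback genes tested, 5 rose, 0 fell and 23 did not pass, and their median was 0.12. JUN, a subunit of the AP-1 factor, had log2 signals of 7.29 and 7.28 in the control and 8.09 and 7.98 after the PCA mixture and rose by 0.75 (standard error 0.0745, adjusted p = 0.00178). DUSP5, a phosphatase that inactivates ERK in the nucleus, went from 8.76 and 8.70 to 9.63 and 9.51 and rose by 0.84 (standard error 0.082, adjusted p = 0.00171). The related phosphatases DUSP1 and DUSP4 rose by 0.72 and 0.60 and PHLDA1 by 0.65. DUSP6, a cytoplasmic ERK phosphatase, had a log2 fold change of 0.40 and stayed under the fold limit. Among 23 dual-specificity phosphatases of the whole family these 3 rose and 0 fell. The orphan nuclear receptor NR4A1, an immediate early gene, rose by 0.76. Leaving out 1 array took DUSP4 (0.54 without PCA array 1, 0.56 without control array 1) and PHLDA1 (0.48 without PCA array 1, 0.58 without control array 1) under the limits.

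Several chemokines that attract neutrophils and monocytes rose, as did 2 interleukins. CXCL5, a neutrophil chemokine, went from 10.29 and 10.25 to 11.59 and 11.52. CXCL8, which encodes interleukin 8 and was the cytokine also measured as protein in the study, had log2 signals of 7.12 and 7.20 on the control arrays and 7.80 and 7.87 on the PCA arrays, a rise of 0.68 (standard error 0.0703, adjusted p = 0.00209). CCL2, a monocyte chemokine, went from 7.68 and 7.76 to 8.84 and 8.55 and rose by 0.97 (standard error 0.11, adjusted p = 0.00248). The groups did not overlap in any of the 3, and the PCA arrays of CCL2 stood further apart than those of CXCL8. The cytokine genes IL11 and IL1A rose by 0.89 and 0.61. IL1A had log2 signals of 4.37 and 4.19 in the control and 4.99 and 4.79 after the mixture, so only PCA array 1 reached the 4.91 needed for the test and the size of its change is not firm. Of 22 genes of this list tested, 5 rose and 0 fell, and the median of the list was 0.24. Among 20 NF-kB subunits, inhibitors and targets, the inhibitor NFKBIA rose by 0.61 and the survival gene IER3 by 0.67, while NFKBIZ, a nuclear member of the inhibitor family, fell by 0.64. The TWEAK receptor gene TNFRSF12A rose by 0.87 and the death ligand gene TNFSF10 (TRAIL) fell by 1.18. When 1 array was left out, the change no longer passed for IL11 (0.65 without PCA array 1, 0.85 without control array 1, 0.92 without control array 2), IL1A (0.52 without control array 2), NFKBIA (0.57 without PCA array 1), IER3 (0.64 without control array 1) and NFKBIZ (-0.55 without PCA array 2, -0.57 without control array 2).

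Several genes that tie cells to the matrix rose, and the main cadherin that ties epithelial cells to each other fell. HAS2, which makes hyaluronan, had log2 signals of 7.55 and 7.43 in the control and 8.81 and 8.43 after the mixture, a rise of 1.13 (standard error 0.14, adjusted p = 0.00318). TNS4, a tensin of focal adhesions, went from 9.56 and 9.51 to 10.66 and 10.53 and rose by 1.06 (standard error 0.112, adjusted p = 0.00223). Integrin genes ITGA3, ITGA6 and ITGB8, which encode matrix receptors, rose by 0.74, 0.69 and 0.60, and with the integrin-like gene ITGBL1 they make 4 rises and 0 falls among 29 integrin genes tested, whose median was 0.08. Of 40 plasminogen, metalloprotease and protease inhibitor genes 4 rose and 2 fell, and the list's median was 0.11. That median was -0.001 at a signal limit of 100, 0.025 after quantile normalization and 0.029 after cyclic loess. Of this list 40% lie in the lower 2 signal quintiles, where the medians of all genes are above 0. SERPINE2, an inhibitor of thrombin and urokinase, went from 9.54 and 9.40 to 10.55 and 10.56 and rose by 1.08 (standard error 0.102, adjusted p = 0.00147), the urokinase gene PLAU rose by 0.81 and TFPI2, a serine protease inhibitor, by 0.82. The carboxypeptidase inhibitor LXN, in contrast, went from 8.92 and 9.10 to 7.25 and 7.44 and dropped by 1.66 (standard error 0.0973, adjusted p = 0.000633). With 1 array left out, the limits were missed by ITGB8 (0.38 without PCA array 1, 0.58 without control array 1, 0.63 without control array 2) and ITGBL1 (0.54 without PCA array 1).

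CDH1, the epithelial cadherin that joins neighbouring cells, had log2 signals of 10.35 and 10.35 on the control arrays and 9.29 and 9.19 on the PCA arrays and dropped by 1.11 (standard error 0.072, adjusted p = 0.000665). ACTA2, an actin of smooth muscle and contractile cells, went from 8.15 and 8.28 to 7.03 and 7.39 and dropped by 1.00 (standard error 0.124, adjusted p = 0.00318). TM4SF20, a tetraspan membrane protein, went from 12.10 and 12.06 to 10.69 and 10.84 and dropped by 1.31 (standard error 0.0846, adjusted p = 0.000665). All 3 fell on both PCA arrays, and ACTA2 had the widest gap between them. Among 35 junction genes tested CDH1 fell, the tight junction gene CLDN1 rose by 0.72 and 33 did not pass. CDCP1, EMP1 and ANXA3, membrane or membrane-binding proteins of epithelial cells, rose by 0.93, 0.88 and 0.94. The Wnt antagonists SFRP1 and SFRP4 moved in opposite directions, as SFRP1 rose by 0.99 and SFRP4 fell by 1.65, and the Wnt receptor gene FZD7 fell by 0.87. In the TGF-beta and BMP pathway 0 of 36 genes rose and 4 fell (1 and 3 when scaled to ribosomal protein genes). The receptor gene BMPR2 fell by 0.86, the decoy receptor gene BAMBI fell by 0.78 and the target ID1 fell by 0.64.

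**Figure D2:**
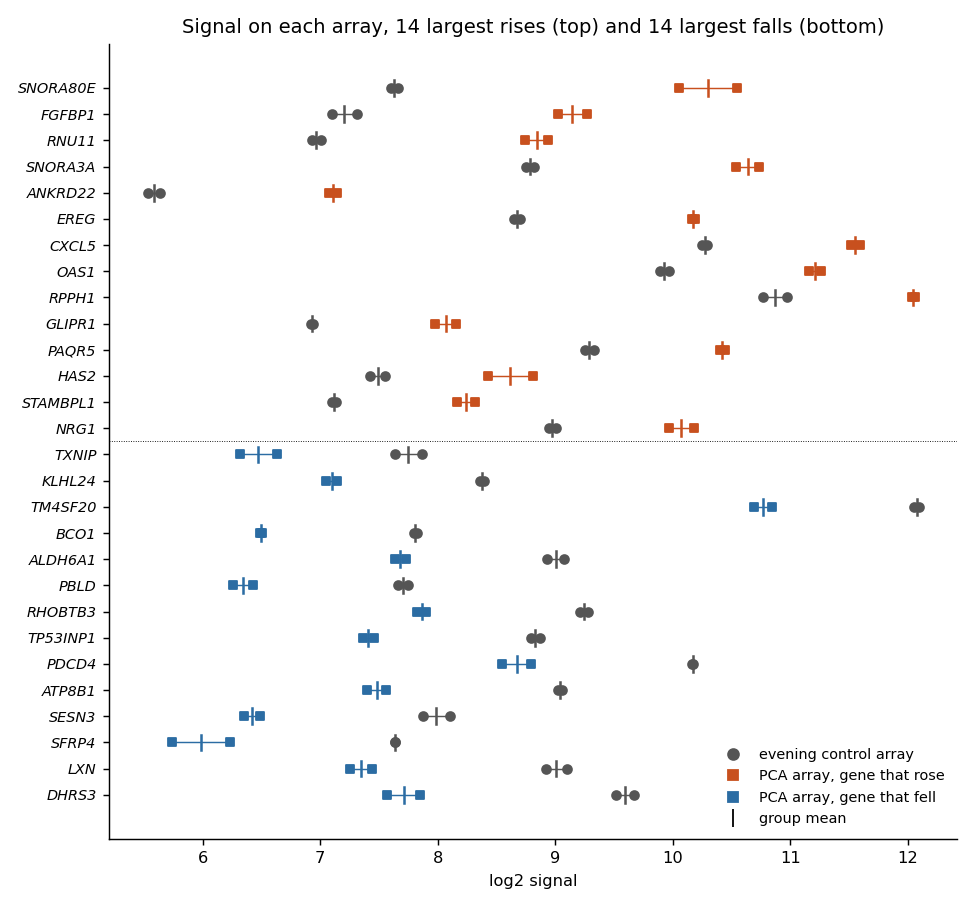
Log2 signal (horizontal axis) on each of the 2 evening control arrays (grey circles) and 2 PCA arrays (squares) for the 14 largest rises (orange, above the dotted line) and the 14 largest falls (blue, below), with short vertical lines at the group means. In all 28 genes the PCA arrays lie beyond the controls, and the widest pairs are the PCA arrays of SNORA80E and SFRP4.

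Short structured RNAs, which guide and cut other RNAs, gave some of the largest rises. SNORA80E, a small nucleolar RNA of the H/ACA class that guides pseudouridine formation, went from 7.60 and 7.66 to 10.55 and 10.05, the largest rise of all genes. SNORA3A, of the same class, went from 8.75 and 8.82 to 10.74 and 10.54 and rose by 1.86 (standard error 0.0871, adjusted p = 0.000557). RPPH1, the RNA of RNase P, which trims transfer RNA precursors, had log2 signals of 10.77 and 10.97 in the control and 12.06 and 12.03 after the mixture, a rise of 1.18 (standard error 0.101, adjusted p = 0.00109). In these genes the PCA arrays were high by more than 1 log2 unit, with the widest gap between PCA arrays in SNORA80E. RMRP, the RNA of the related RNase MRP, rose by 0.59 and was named after its value was seen. RNU11 of the minor spliceosome rose by 1.88, and the U1 variants RNVU1-1, RNVU1-19, RNVU1-6 and RNVU1-17 rose by 0.85, 0.82, 0.62 and 0.59. RNVU1-19 and RNVU1-17 had control signals of 4.08 and 4.28 and of 4.45 and 4.08, all under 4.91, and were tested through PCA arrays alone, so the sizes of their changes are not firm. These U1 variants are near copies of each other, so their probe sets may read shared RNA. Leaving out 1 array took RMRP (0.55 without PCA array 1, 0.54 without control array 2), RNVU1-6 (0.55 to 0.69, whichever of the 4 arrays was left out) and RNVU1-17 (0.41 without control array 2) under the limits.

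By gene type, 5 of 19 small nuclear RNA genes (26.3%) and 7 of 143 small nucleolar RNA genes (4.9%) rose, while 135 of 16142 coding genes (0.836%) did. Of the 5 small nuclear RNA genes, 2 had both control arrays under the limit of the test, and at a signal limit of 100 the list of spliceosomal small nuclear RNAs held 3 rises among 15. The H/ACA class held 5 of the rises in 59 genes tested, with 0 falls and a median of 0.20. The C/D class, which guides methylation of ribosomal RNA, had a median of -0.12 with 2 rises and 1 fall among 84. The H/ACA class had 5 to 12 rises and 0 falls under each scaling tried. The C/D class had 0 rises and 2 falls with the arrays centred on their medians, after quantile normalization and after cyclic loess, but 4 rises, 0 falls and a median of 0.03 when scaled to ribosomal protein genes, so it has no settled direction. Probe sets on such short RNAs may also read a host transcript or precursor, and the RNA was isolated on silica columns that retain short RNAs poorly. Among 115 microRNA genes 0 rose and 1 fell, MIR21, by 0.65 (standard error 0.0945, adjusted p = 0.00551), from log2 signals of 11.22 and 11.21 to 10.70 and 10.44. When 1 array was left out, the change no longer passed for MIR21 (-0.51 without PCA array 2). Which transcript of the locus its probe set reads was not tested. The sequence of the mature RNA is given with the seed (bases 2 to 8) in capitals because it is the microRNA gene that changed.
hsa-miR-21-5p, chr17:59841273-59841294 of GRCh38.p14 (plus strand): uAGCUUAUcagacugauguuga

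Some antiviral genes fell, while OAS1 rose. OAS1, which makes the activator of RNase L, went from 9.89 and 9.97 to 11.26 and 11.16, both PCA arrays above both controls. PARP9, an ADP-ribosyltransferase family member of the interferon response, went from 8.43 and 8.33 to 7.17 and 7.34 and dropped by 1.12 (standard error 0.101, adjusted p = 0.00127). Its binding partner DTX3L fell by 0.89 and the neighbouring family member PARP14 by 0.88. IFIT1, which binds foreign RNA caps, went from 7.06 and 7.30 to 6.26 and 5.94 and dropped by 1.08 (standard error 0.159, adjusted p = 0.00564). HERC6 and SAMD9 fell by 0.75 and 0.66. Of 29 interferon-induced genes tested, 1 rose, 6 fell and the list's median was -0.15. It held 5 to 8 falls and 1 or 2 rises under each scaling tried. The Toll-like receptor gene TLR1 and the transcription factor gene STAT4 fell by 1.13 and 1.14. With 1 array left out, the limits were missed by SAMD9 (-0.66 without PCA array 2, -0.52 without control array 2).

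Several genes that restrain growth were among the largest falls. SESN3, a sestrin that restrains mTORC1, went from 8.11 and 7.87 to 6.49 and 6.36 and dropped by 1.57 (standard error 0.138, adjusted p = 0.00118). PDCD4, which inhibits translation, had log2 signals of 10.17 and 10.17 in the control and 8.55 and 8.79 after the mixture. TXNIP, which binds thioredoxin and limits glucose uptake, went from 7.64 and 7.87 to 6.32 and 6.63 and dropped by 1.28 (standard error 0.138, adjusted p = 0.00234). The 3 genes were low on both PCA arrays. The falls were several times the gaps within a pair, although most of those gaps were wider than is usual for these arrays. BCL2L11 (BIM), a killer protein of the BCL2 family, fell by 1.07 (standard error 0.0824, adjusted p = 0.000935), the kelch protein gene KLHL24 by 1.28 (standard error 0.0881, adjusted p = 0.000665) and the mTOR inhibitor DEPTOR by 1.13. Of 28 restraints of the insulin and PI3K pathway, 4 fell, 0 rose, and the median of the list was -0.16. The same counts were found with a signal limit of 100, with arrays centred on their medians, after quantile or cyclic loess normalization and when scaled to ribosomal protein genes. Among 32 cell cycle inhibitors and p53 targets, TP53INP1, CCNG1 and CCNG2 fell by 1.42, 0.61 and 0.98, 0 rose and the median was 0.003, while 1 rose and 2 fell after quantile or cyclic loess normalization or when scaled to ribosomal protein genes. The ubiquitin ligase subunit gene FBXO32, known from muscle wasting, fell by 0.88. Leaving out 1 array took CCNG1 (-0.57 without control array 1) and FBXO32 (-0.50 without PCA array 1, -0.89 without control array 1, -0.86 without control array 2) under the limits.

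Genes that act on retinoids fell at several steps. DHRS3, which reduces retinal to retinol, went from 9.52 and 9.67 to 7.57 and 7.85 and had the largest fall of all genes. RARB, a retinoic acid receptor that retinoic acid itself induces, had log2 signals of 8.93 and 8.93 in the control and 7.66 and 7.64 after the mixture and dropped by 1.28 (standard error 0.091, adjusted p = 0.000698). BCO1, which cleaves beta-carotene to retinal, went from 7.80 and 7.82 to 6.49 and 6.50 and dropped by 1.31 (standard error 0.0878, adjusted p = 0.000665). The arrays of each group lay close together in RARB and BCO1, and the falls were many times the gap between them. The alcohol dehydrogenase genes ADH6 and ADH1C fell by 1.08 and 0.78 and the retinol transporter gene STRA6 by 0.65, while the short-chain dehydrogenase DHRS9 rose by 0.64. DHRS9 was tested through its PCA arrays alone, since its control signals of 4.58 and 4.65 lie under 4.91, and the list held 0 rises at a signal limit of 100. Of 40 retinoid, aldehyde, aldo-keto and alcohol dehydrogenase genes, 1 rose, 6 fell and 33 did not pass, and the median was -0.13. DHRS9 no longer rose with the arrays centred on their medians or after quantile or cyclic loess normalization, and the list held 2 rises, 3 falls and a median of 0.03 when scaled to ribosomal protein genes. Aldo-keto reductases, which A549 cells make in large amounts, had 0 changes among 10 genes, with values from -0.272 to 0.335. The study lists AKR1B1 of this family as higher after the PCA mixture. The 10 genes counted are those with a probe set of 1 gene symbol, so the count of 0 does not show that AKR1B1 was unchanged. When 1 array was left out, the change no longer passed for ADH1C (-0.81 without PCA array 1, -0.73 without PCA array 2, -0.45 without control array 2), STRA6 (-0.62 without PCA array 1, -0.46 without control array 2) and DHRS9 (0.59 to 0.69, whichever of the 4 arrays was left out).

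Some enzymes that break down amino acids, fatty acids and foreign compounds fell, and 0 in these 3 lists rose. Of 48 genes of amino acid breakdown and one-carbon metabolism, 7 fell and 0 rose, with a median of -0.20. ALDH6A1, which acts in valine breakdown, went from 9.08 and 8.93 to 7.73 and 7.63. MMUT, the methylmalonyl-CoA mutase, fell by 0.96, the homogentisate oxygenase HGD by 0.90, the leucine pathway carboxylase subunit MCCC1 by 0.73 and the folate enzyme SHMT1 by 0.70. Of 48 fatty acid oxidation and peroxisome genes, 5 fell, 0 rose and 43 had a negative log2 fold change, beside 50.3% of all genes. Of this list 8.33% lie in the lower 2 signal quintiles, so most lie where the median of all genes is below 0. ACSM3, which activates medium-chain acids, went from 8.78 and 8.81 to 7.57 and 7.57, and the peroxisomal enzyme EHHADH fell by 0.68. Among 49 cytochrome P450 and conjugation genes 6 fell and 0 rose, and EPHX2, the soluble epoxide hydrolase, fell by 0.93, the glutathione transferase GSTM4 fell by 0.82 and the leukotriene hydroxylase CYP4F3 fell by 0.81. FMO5, a flavin monooxygenase, and MAOA, which oxidizes amines, fell by 1.09 and 1.03. The 37 NRF2 antioxidant genes held 0 rises and 1 fall, the NRF2 partner MAFG, which fell by 0.59, with a median of -0.23. Under scaling to ribosomal protein genes, 3 amino acid, 2 fatty acid and 4 P450 and conjugation genes still fell, and 1 amino acid gene rose. With 1 array left out, the limits were missed by MAFG (-0.53 without PCA array 2, -0.58 without control array 2).

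Some transporters of lipids and drugs fell, as did some solute carriers. ATP8B1, a flippase that moves phospholipids across the membrane, went from 9.06 and 9.03 to 7.56 and 7.40 and dropped by 1.56 (standard error 0.133, adjusted p = 0.00108), and ATP9A of the same family fell by 0.84. Of 41 ABC transporters, 6 fell and 0 rose. The lysosomal transporter gene ABCA5 fell by 0.92, ABCB6 by 0.77, the lipid exporter ABCA12 by 0.68, the drug efflux pumps ABCC4 and ABCG2 by 0.67 and 0.65 and the cholesterol exporter ABCA1 by 0.65. The share of ABC transporters that fell was 14.6% while their median was -0.03, near that of all genes. Of the family, 48.8% lie in the lower 2 signal quintiles. At a signal limit of 100, 6 of 27 fell and the median was -0.22, beside -0.063 for all genes. Scaled to ribosomal protein genes, 2 fell and 0 rose. Of 365 solute carriers 13 fell and 1 rose. SLC46A3, a lysosomal transporter, went from 7.66 and 7.54 to 6.46 and 6.48 and dropped by 1.13 (standard error 0.0835, adjusted p = 0.000806). The vitamin C transporters SLC23A1 and SLC23A2 fell by 0.82 and 0.86, the iron exporter SLC40A1 (ferroportin) by 0.83 and the magnesium transporter SLC41A2 by 0.96. The 1 rise was SLC5A3, which takes up myo-inositol, by 0.84 (standard error 0.0876, adjusted p = 0.00207), and the water and glycerol channel AQP3 rose by 0.84. At 3.56%, the share of solute carriers that fell was close to the 2.66% of all genes, and 4 rose and 6 fell when scaled to ribosomal protein genes. Leaving out 1 array took ABCA1 (-0.51 without PCA array 2, -0.65 without control array 2) under the limits.

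Several genes for plasma proteins of the kind the liver makes fell. C5, the complement component that yields a chemoattractant peptide, had log2 signals of 10.38 and 10.43 in the control and 9.32 and 9.40 after the mixture and dropped by 1.05 (standard error 0.0959, adjusted p = 0.00134). The 3 fibrinogen chains FGA, FGB and FGG, which A549 cells can make, fell by 0.85, 0.91 and 0.84. CFI, C1S and APOH fell by 0.73, 0.67 and 0.64, while CD55, a membrane protein that protects cells from complement, rose by 0.84. Of 40 coagulation, apolipoprotein and complement genes 1 rose, 7 fell and the list's median was -0.16. That median was -0.01 when scaled to ribosomal protein genes. The list also had a median of 0.147 in the evening less the morning control, beside 0.004 for all genes. C5, FGA and FGG lost their calls with the morning controls in place of the evening controls. C1RL, a protease of complement type, and CPN1, a carboxypeptidase that inactivates C5a, fell by 1.01 and 1.01. Among transcription factors of hepatic or gut type, NR5A2 fell by 0.91 and HNF4G by 0.73, and the forkhead gene FOXN3 fell by 0.78. The study reports HNF4A as lower after the PCA mixture, and no value for HNF4A is given here. FOXA1, a forkhead factor of lung and liver, had a log2 fold change of -0.53 and stayed under the fold limit. When 1 array was left out, the change no longer passed for FOXN3 (-0.56 without PCA array 1, -0.75 without control array 1, -0.82 without control array 2).

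Genes of the dividing cell and of the cilium lay lower in large part, with few past the limits. Of 54 spindle, kinetochore and mitotic kinase genes 50 had a negative log2 fold change, beside 50.3% of all genes, and 6 fell. The spindle pole gene ASPM fell by 0.87 and the kinetochore gene NDC80 fell by 0.84. Of 53 replication-dependent histone genes 11 fell and 0 rose, with a median of -0.43, and H3C10 fell by 0.81. Their sequences are near copies, so probe sets may share signal. Of 43 cilium and intraflagellar transport genes 41 had a negative value and 4 fell, with a median of -0.33. Of the spindle list 7.41% and of the cilium list 9.3% lie in the lower 2 signal quintiles, so most of their genes are in the upper 3, where all genes have medians of -0.013 to -0.133. The spindle list also had a median of -0.24 in the evening less the morning control, beside -0.001 for the cilium list and 0.004 for all genes. DYNC2H1, the motor that carries cargo back from the ciliary tip, went from 7.78 and 7.56 to 7.05 and 6.88 and dropped by 0.71 (standard error 0.104, adjusted p = 0.00565), and IFT81, BBS9 and WDR19 of the transport machinery fell by 0.69, 0.67 and 0.59. Scaled to ribosomal protein genes, 0 cilium genes, 2 spindle genes and 3 histone genes fell and 0 rose. Genes of DNA replication and of DNA repair had 0 changes among 49 and 54, with medians of -0.07 and -0.15. The replication median turned to 0.01 after quantile normalization, 0.02 after cyclic loess and 0.08 when scaled to ribosomal protein genes. With 1 array left out, the limits were missed by IFT81 (-0.53 without PCA array 2, -0.68 without control array 2), BBS9 (-0.52 without PCA array 2, -0.54 without control array 1) and WDR19 (-0.55 without PCA array 2, -0.56 without control array 1).

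**Figure D3:**
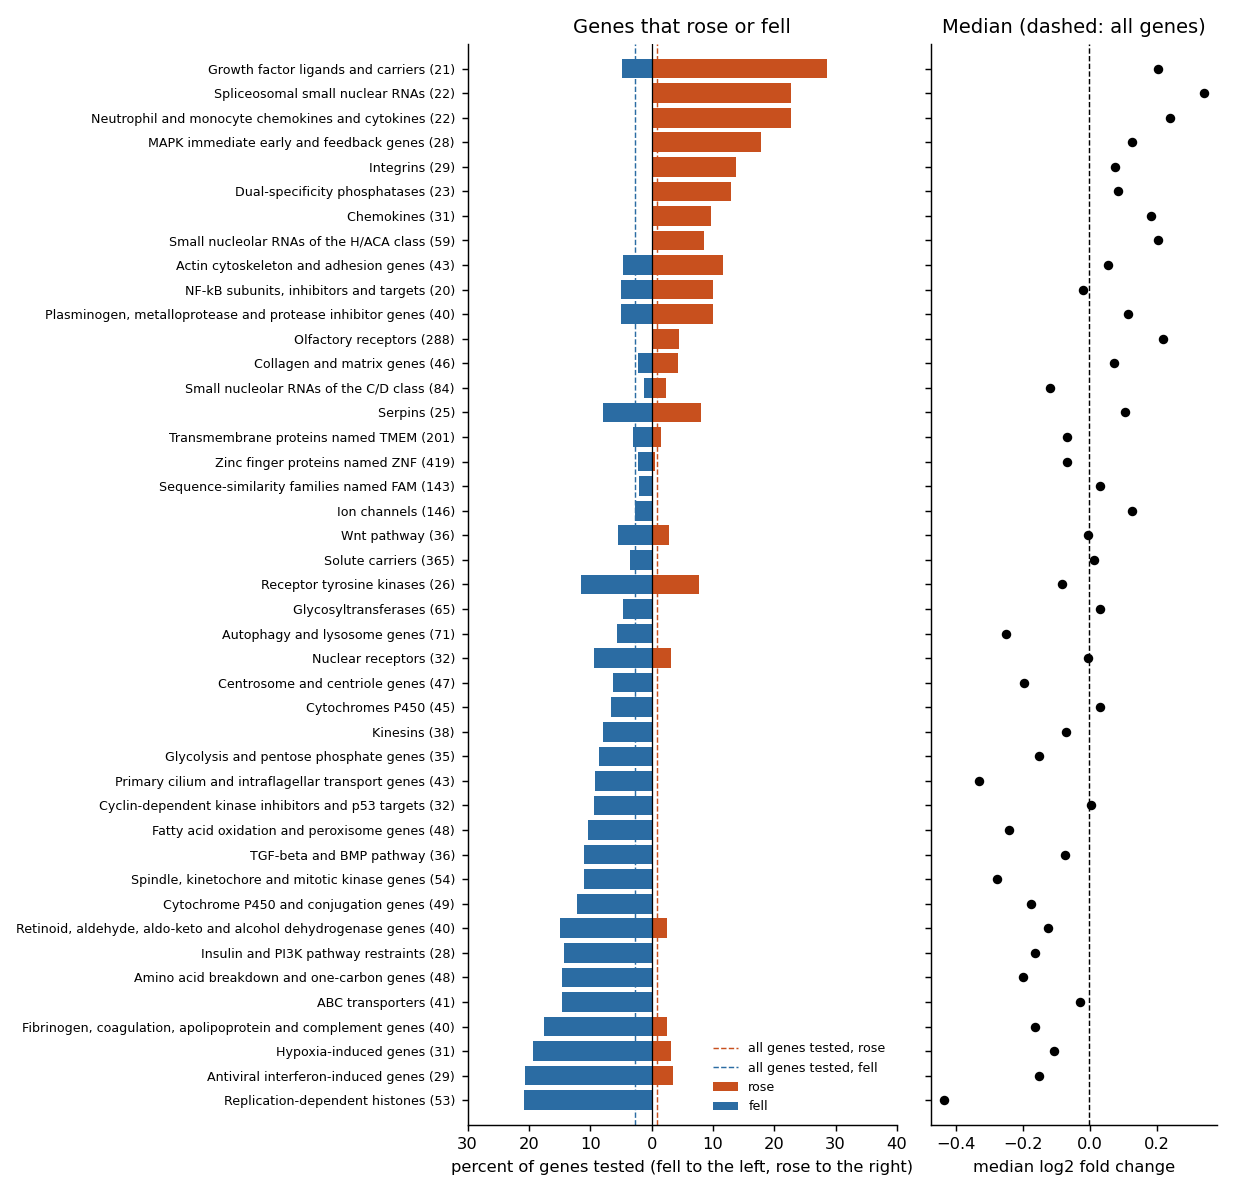
Share of the genes tested that rose (orange, to the right) or fell (blue, to the left) in each list or family with at least 3 changed genes, and the median log2 fold change of each (right panel), with the number tested in brackets. Dashed lines are the values over all genes, 0.876% for rises, 2.66% for falls and a median of -0.002.

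Other large changes lay outside the groups above. GLIPR1, a secreted or membrane protein that p53 can induce, went from 6.94 and 6.92 to 8.16 and 7.98 and rose by 1.14 (standard error 0.089, adjusted p = 0.000935). PAQR5, a membrane receptor for progestins, went from 9.25 and 9.33 to 10.45 and 10.40 and rose by 1.13 (standard error 0.0992, adjusted p = 0.00114). In both genes the control arrays lay within a narrow range well below the PCA arrays. The deubiquitinase gene STAMBPL1 rose by 1.12, the neuron navigator gene NAV3, whose product binds microtubules, by 1.03, the matrix protein gene CCBE1 by 0.97, the adhesion molecule gene CLMP by 0.93, the microtubule-linked kinase gene DCLK1 by 0.92, the GABA receptor subunit gene GABRA5 by 0.88 and CTPS1, which makes cytidine triphosphate, by 0.85.

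Among the falls, RHOBTB3 went from 9.28 and 9.21 to 7.83 and 7.90 and dropped by 1.38 (standard error 0.12, adjusted p = 0.00112). GPRC5B, an orphan receptor, went from 8.65 and 8.87 to 7.56 and 7.52 and dropped by 1.22 (standard error 0.0932, adjusted p = 0.000935). Both changes were several times the gaps within a pair. The Golgi protein gene GASK1B fell by 1.17, the lipid acyltransferase gene MBOAT1 fell by 1.16, the Src family kinase gene FRK fell by 1.00 and the calcium channel subunit gene TMEM37 fell by 1.26.

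Of 103 lists and families counted, 23 had 0 changed genes. Besides those named, they include 58 nucleolar ribosome biogenesis genes (median 0.13), 61 spliceosome protein genes (-0.14), 39 proteasome subunits (-0.08), 29 genes of the tricarboxylic acid cycle (-0.17), 33 respiratory complex I subunits (-0.13), 73 mitochondrial ribosomal proteins (-0.08), 21 metallothionein and zinc genes (0.01) and 43 collagens (0.15). Of the 58 nucleolar genes 48 had a positive log2 fold change, beside 49.7% of all genes. Only 1.72% of them lie in the lower 2 signal quintiles, so most lie where the median of all genes is below 0. Heat shock proteins held 1 rise, HSPH1 by 0.65, among 36 genes, and DNAJB4 fell by 0.63. Endoplasmic reticulum stress genes held 0 rises and 1 fall among 41, XBP1, which fell by 0.62. Among 31 hypoxia-induced genes, 1 rose, the hormone gene STC1 by 0.75, and 6 fell. PFKFB3, which drives glycolysis, fell by 0.87 and NDRG1 by 0.67, but 2 rose and 1 fell when scaled to ribosomal protein genes and 1 rose and 1 fell after cyclic loess. The reference gene ACTB changed by -0.03 (standard error 0.0918, adjusted p = 0.83) on the log2 scale, which took the other sign under 5 of the settings tried. Leaving out 1 array took HSPH1 (0.56 without control array 2), DNAJB4 (-0.68 to -0.58, whichever of the 4 arrays was left out), XBP1 (-0.51 without PCA array 1, -0.59 without control array 2) and NDRG1 (-0.52 without PCA array 2, -0.63 without control array 1) under the limits.

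Olfactory receptor genes, whose known role is odour sensing in the nose, held 13 rises and 0 falls among 288 tested (4.51%), with a median of 0.22. Of these, 282 (97.9%) lie in the lower 2 signal quintiles, where medians were 0.151 and 0.104. The count was 4 with the arrays centred on their medians, 2 after quantile normalization and 1 after cyclic loess, and 43 when scaled to ribosomal protein genes. Of the 13 rises, 3 had both control arrays under the signal limit of the test. OR4C6, the olfactory receptor gene with the largest rise, had log2 signals of 6.21 and 5.72 in the control and 6.94 and 6.85 after the mixture. These counts move with the scale of the arrays at low signal, and the part of background signal in them was not tested.

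Long genes fell more often than short genes. By the span of the gene on GRCh38.p14, the share that fell went from 1% in the quintile of shortest genes (spans up to 6447 bases) to 1.63%, 2.49%, 3.15% and 4.99% in the longest (from 86066 bases). The share that rose was 1.46% in the quintile of shortest genes and 0.659% in the longest. The median span was 53304 bases for genes that fell, 22454 for genes that rose and 24849 for all 17444 genes with a span. Signal differs with span, but among genes of the upper 3 signal quintiles the share that fell still went from 1.81% in the shortest genes to 7.35% in the longest. SYNE2, a long gene for a protein of the nuclear envelope, went from 9.73 and 9.75 to 8.49 and 8.45 and dropped by 1.27 (standard error 0.0858, adjusted p = 0.000665). These shares are descriptions over genes of 1 comparison, which are not independent.

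**Figure D4:**
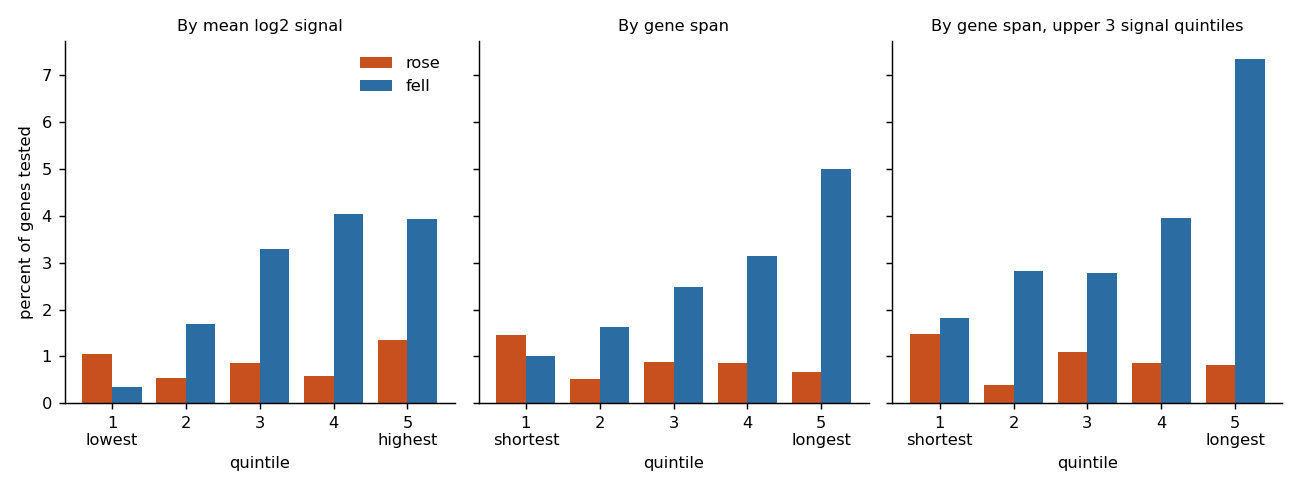
Percent of genes that rose (orange) or fell (blue) by quintile of mean log2 signal (left), of gene span (middle) and of gene span among genes of the upper 3 signal quintiles (right). Falls go from 0.343% to 3.92% between the lowest and highest signal and from 1% to 4.99% between the shortest and longest genes.

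Probe sets with no gene symbol in the annotation used here changed in the other direction. Of 5221 tested, 299 changed (5.73%), of which 243 rose (4.65%) and 56 fell (1.07%). The largest rise was in probe set 8116952, from log2 signals of 8.18 and 7.95 to 10.27 and 10.29. Probe set 8095744 went from 8.08 and 8.10 to 10.04 and 9.88. The largest fall was in probe set 7988970, from 9.28 and 9.23 to 7.79 and 7.85. Of 1699 probe sets with several symbols 71 changed (4.18%), 32 upward (1.88%) and 39 downward (2.3%). Over all 25264 probe sets 1020 changed (4.04%). Probe sets with no symbol or several are not among the 617 genes.

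The limits used to call a change pass through a dense part of the data. Just inside the fold limit lay RBMS3, EIF4B and DIPK1A, at -0.585, -0.586 and -0.587, and just outside THRAP3, NCAM2 and APBB2, at -0.584, 0.584 and -0.584, all with an adjusted p under 0.05. Without a fold limit 3471 genes (19.9%) had an adjusted p under 0.05, of which 999 were higher and 2472 lower. Under limma's treat, which asks for a change beyond 1.5-fold, the count was 28 (0.16%), 7 higher and 21 lower. They include SNORA80E, FGFBP1, RNU11, SNORA3A, ANKRD22, EREG and OAS1 among the rises and DHRS3, LXN, PDCD4, RARB and CDH1 among the falls. ANKRD22, a gene of unsettled function, went from 5.64 and 5.53 to 7.14 and 7.08 and rose by 1.53 (standard error 0.123, adjusted p = 0.00102).

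For the 80 genes with the largest changes, the PCA response was set against the response to the primary mixture (primary mixture less morning control), which uses the other 4 arrays. These genes were chosen on their PCA response, so smaller values in the other comparison are given as a description. The median primary log2 fold change was 0.19 for the 35 largest rises and -0.35 for the 45 largest falls. That primary change was positive for 33 of the 35 rises and negative for 43 of the 45 falls. The difference between responses passed at an adjusted p under 0.05 for 36 of the 80, and for 77 of 17540 genes in all (0.439%). The 80 were chosen on values that enter this difference, which raises their share. It is therefore not compared with the share of all genes. For FGFBP1 the primary response was 0.42 and the difference 1.52 (standard error 0.154, adjusted p = 0.023). For RARB the primary response was 0.01 and the difference -1.28 (standard error 0.129, adjusted p = 0.023), and for TCP11L2, a gene of little known function, they were -0.12 and -1.01 (standard error 0.0959, adjusted p = 0.023). CCL2 had a primary response of 0.84, close to its PCA response, with a difference of 0.13 (standard error 0.156, adjusted p = 0.705). The count of 77 rests on every array. It fell to 2 with the replicate number as a block, to between 0 and 3 with any 1 of the 8 arrays left out, and rose to 983 with a trended and robust prior.

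Mixture, time of day and exposure run change together between the responses, so their parts cannot be told apart. Within the evening comparison, the exposed cells stood in a chamber through which the mixture was drawn. The study describes the controls as held in incubator air and gives no flow for them. The parts of mixture and flow therefore cannot be told apart either. The controls of the 2 times of day can be set side by side for the leading genes. FGFBP1 was at -0.61 in the evening less the morning control, EMP1 at -0.60, ST6GAL1, a sialyltransferase that fell by 1.01, at 0.54 and C5 at 0.46. Over the 45 largest falls this difference ran from -0.10 to 0.54 with a median of 0.19, beside a median of 0.004 over all genes. It shares the evening control arrays with the PCA response, so the values are given side by side and not compared. With the morning controls in place of the evening controls, an alternative added later with the data in view, 508 genes changed and 353 of them were among the 617. Of the 174 genes named here, 36 lost their call in that setting, among them C5, the fibrinogen genes FGA and FGG, EMP1, DUSP1 and DUSP5, and 1 gained it, DUSP6.

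**Figure D5:**
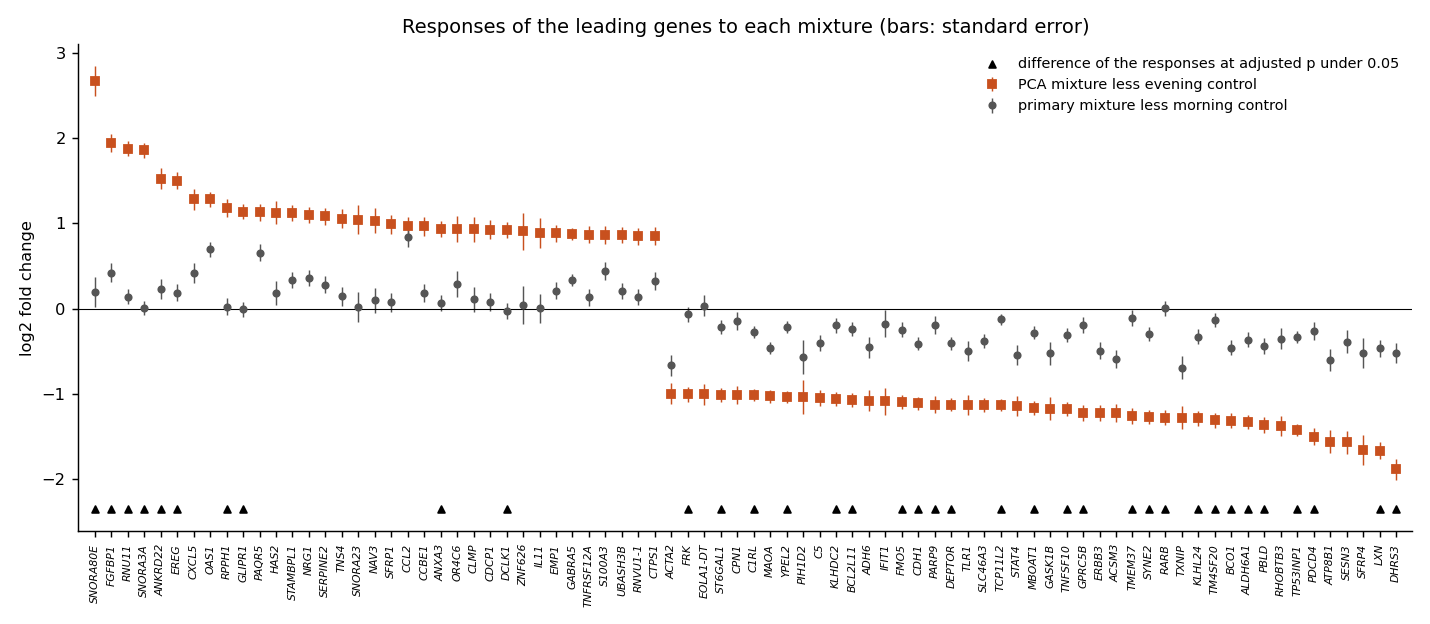
Log2 fold change (vertical axis) of the 35 largest rises and 45 largest falls after the PCA mixture less the evening control (orange squares) and after the primary mixture less the morning control (grey circles), with standard errors as bars. Triangles mark the 36 genes whose responses differ at an adjusted p under 0.05, and over all genes such a count fell from 77 to between 0 and 3 with any 1 array left out.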

How the data were processed

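Total RNA of A549 cultures was read on Affymetrix Human Gene 1.0 ST arrays, 2 in each of 4 groups. The authors normalized the arrays by robust multi-array average (RMA) and deposited log2 signal values in 1 table, and Partek 6.4 stands in the submitters' processing notes. The comparison uses the PCA and evening control arrays, assigned by their titles. Of 28869 probe sets, 19310 had 1 gene symbol in the platform annotation used here, 1752 had several and 7807 had none, and 685 of the 18377 genes had several probe sets, of which the one with the highest mean signal was used. Probe sets with a signal of at least 30 (log2 4.91) on at least 1 of the 4 arrays were tested, which kept 17470 genes. limma 3.58.1 in R 4.3.3 was fitted to all 8 arrays, with 4 residual and 3.64 prior degrees of freedom, and p-values were adjusted by the Benjamini-Hochberg method over the 25264 probe sets tested. The study's own fold limit of 1.5 and level of 0.05 were kept. RMA pulls background to a common low signal, so fold changes of dim probe sets are understated. Arrays carry no count depth, and 2 arrays a group limit the precision. Probe-level intensities were not used here, so scaling was varied on the deposited values.

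Named genes were drawn from the 35 largest rises and 45 largest falls, up to 4 members of each gene list or family by smallest p, markers, reference genes and the genes at the fold limit. The members and the gene lists were chosen with earlier results of these data known, so lists are described by counts and medians with no set test. Gene spans, types and promoter windows came from RefSeq on GRCh38.p14 by symbol. The fitting script was tested on simulated data. Alternatives tried were other filters and fold limits, median centring, quantile and cyclic loess normalization, scaling to 63 ribosomal protein genes, other controls, analysis of variance, other priors, a replicate block and leaving out each array.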

Additional observations from a re-analysis of the deposited data

Results flagged for a closer look

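For 43 of the genes named above, the response to the PCA mixture differed from the response to the primary mixture by limma's test of that difference, each at an adjusted p under 0.05. The values are the PCA response less the primary response, on the log2 scale, with 2 arrays in each of the 4 groups. Among short structured RNAs they were SNORA80E at 2.48, SNORA3A at 1.85, RNU11 at 1.74 and RPPH1 at 1.15. Among growth factor, chemokine and signalling genes that rose they were FGFBP1 at 1.52, EREG at 1.31, JUN at 1.01 and CXCL8 at 0.74, and among membrane-linked genes that rose ANKRD22 at 1.29 and ANXA3 at 0.87. Outside the lists they were GLIPR1 at 1.14, DCLK1 at 0.95, TMEM37 at -1.15, GPRC5B at -1.03, FRK at -0.94 and MBOAT1 at -0.88. Genes of growth restraint or cell death were PDCD4 at -1.24, TP53INP1 at -1.09, KLHL24 at -0.96, TNFSF10 at -0.87, BCL2L11 at -0.83 and DEPTOR at -0.72. For retinoid metabolism or signalling the genes were DHRS3 at -1.36, RARB at -1.28 and BCO1 at -0.86. In receptors and adhesion the values were CDH1 at -0.70, FZD7 at -0.87, FGFR4 at -0.70 and ERBB2 at -0.68. Genes of metabolism were ALDH6A1 at -0.96, FMO5 at -0.85 and PFKFB3 at -0.79. For membrane proteins and transport the genes were TM4SF20 at -1.18 and ABCB6 at -0.74. In regulators of transcription or the interferon response the values were NR5A2 at -0.91 and PARP9 at -0.93. Genes of the nuclear envelope, the spindle and glycan synthesis were SYNE2 at -0.97, ASPM at -0.79 and ST6GAL1 at -0.80. For other roles the genes were LXN at -1.20, TCP11L2 at -1.01, KLHDC2 at -0.86 and C1RL at -0.74. JUN and CXCL8 had primary log2 fold changes of -0.26 and -0.06. The genes were named in part on their PCA response, which enters these differences. Over all genes 77 differences passed. That count was 2 with the replicate number as a block and 0 to 3 with any 1 array left out, so these differences rest on all 8 arrays. The mixtures were given at different times of day and in different runs, and the parts of mixture, time and run cannot be told apart.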

How the results depend on the processing

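Of the settings tried, those that moved the counts of 617 changed genes, 153 rises and 464 falls most were the limits themselves. limma's treat gave 28 genes, 7 higher and 21 lower, a fold limit of 2 gave 62 genes, 18 higher and 44 lower, and no fold limit gave 3471 genes, 999 higher and 2472 lower. Analysis of variance with Benjamini-Hochberg adjustment gave 96 rises. Scaling to ribosomal protein genes gave 482 rises and 185 falls. With 1 array left out, between 535 and 680 genes changed, 131 to 206 higher and 404 to 507 lower, and 460 to 495 of the 617 were called again. Every other setting kept the 3 counts within 1.5-fold, with 573 changed genes at a signal limit of 100, 773 with median centring, 553 after quantile normalization and 524 after cyclic loess. The cause of these shifts was not tested.

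The same replicate number does not pair these samples, since the deviations of same-numbered PCA and evening control arrays from their group means correlated at 0.005 across genes. The replicate block gave 612 changed genes, 151 higher and 461 lower, and of the 174 named genes it changed no call. For the difference between the PCA and primary responses the block gave 2 genes in place of 77, a signal limit of 100 gave 537, a trended and robust prior gave 983, and leaving out 1 array gave 0 to 3.

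Of the 174 named genes, 15 to 21 lost their call with 1 array left out, 16 after quantile normalization, 18 after cyclic loess, 10 with median centring and 29 when scaled to ribosomal protein genes. The log2 fold change of ACTB took the other sign with evening control replicate 1 left out (-0.076 to 0.016 over the arrays left out in turn), at 0.064 after cyclic loess, 0.121 when scaled to ribosomal protein genes, 0.037 against the morning controls and 0.004 against both controls, and that of SFTPC at -0.014 after cyclic loess. With 2 arrays a group from 1 run, changes between runs are not measured, and dim probe sets give only compressed changes.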
